A study of Arabidopsis thaliana with 20 samples.

Results

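The 20- and 21-nt siRNAs with cleavage records were the siRNAs of the deposited level table that served as the query of at least 1 cleavage record, whose sequence in that record was 20 or 21 nt long, and whose predicted site held at least 5 degradome reads. There were 91 of them among the 4255 siRNAs of the table, 34 of 20 nt and 57 of 21 nt. They had 145 records, which made 111 pairs of an siRNA and a site, at 106 distinct sites on transcripts of 94 genes. The seedlings were wild-type *Arabidopsis* Col-0, grown in the dark for 4 d (W0 h) and then given white light of 100 μE for 1, 3, 6 or 12 h. Each small RNA library was made from the aerial tissue of pooled seedlings, and the study names no tissue for the degradome libraries. The study describes 1 h of white light to start germination for its phenotype seedlings, and does not repeat it for the sequenced ones. Each of these 5 time points had 3 biological replicates. Cleavage was measured in 2 degradome libraries, 1 from dark-grown seedlings and 1 from a mixture of light-treated seedlings that also held material from 24 h. The 15 siRNA libraries had 17579785 to 20906003 mapped reads (median 18661473), and the degradome libraries had 48766970 in the dark and 46178774 in the light.

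Plant small RNAs of 20 to 21 nt are loaded into ARGONAUTE proteins and guide the cutting of mRNAs to which they pair closely. The cut falls between the target bases opposite small RNA positions 10 and 11, and the 3′ fragment that remains starts with the base opposite position 10. Degradome sequencing reads the 5′ ends of such fragments, so that cleavage at 1 position piles up reads there. The best known guides of this length are miRNAs, which are cut from hairpin precursors, and trans-acting siRNAs, which are cut in phase from *TAS* transcripts after a miRNA has cleaved them. Many conserved plant miRNA targets encode transcription factors that act in leaf, root and phase-change development.

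Of the 91 siRNAs, 42 shared a stretch of at least 16 nt with a mature miRNA, and 10 more aligned to one over at least 18 nt with a single substitution inside. In all 52 of them were thus relatives of a miRNA, 24 of them of miR156 or miR157. A total of 14 matched a *TAS* locus, 11 matched genes annotated as rRNA, tRNA, snRNA or snoRNA, and 14 were none of these by annotation. Of these last, SRNA4970854, SRNA11040075, SRNA12297780 and SRNA15286383 matched genes annotated as miscellaneous RNA at chr2:6490-7947. SRNA10450109, of the 11, matched an rRNA gene at chr2:5875-5894. SRNA19950377, with 258 exact matches, also matched genes annotated as miscellaneous RNA. Whether these siRNAs are rRNA fragments was not tested, so the 11 may be too few. In 2 cases the siRNA was a mature miRNA itself, SRNA20385303 (miR161.2) and SRNA22208257 (miR156j). The other miRNA relatives differed from their miRNA by a trimmed or added end, by a start 1 nt upstream (9 siRNAs) or by a substitution (31 siRNAs).

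The miR156 relatives are shown first because they cover most of the *SPL* sites. Capitals mark bases that differ from the miRNA or lie beyond it, and all sequences run 5′ to 3′. SRNA11762369 is compared with miR156g, which starts with C, and the others with miR156a-5p.
miR156a-5p: ugacagaagagagugagcac
SRNA22209405: ugacagaagagagugagcacA
SRNA7862325: Augacagaagagagugagcac
SRNA22206987: ugacagaaAagagugagcacU
SRNA22266841: ugacGgaagagagugagcac
SRNA22208379: ugacagaagagagCgagcac
SRNA11762369: cgacagaagagagugagcacU
The *SPL10* site that 2 of these siRNAs were recorded at is given next, with the base opposite position 10 in capitals. It lay in the coding sequence, in exon 5 of 5, at chr1:9505541-9505561 on the minus strand of TAIR10.1.
*SPL10* site: agugcucucucUcuucuguca

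The miR166 relatives and their site in *ATHB-15* are shown because the pair differ in where they start. Both sites run over an intron and hold their cut in exon 5 of 17. That of SRNA11236959 was at chr1:19412976-19413085 on the minus strand.
miR166a-3p: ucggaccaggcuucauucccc
SRNA11236959: Ccggaccaggcuucauucccc
SRNA24132551: Uucggaccaggcuucauuccc
*ATHB-15* site of SRNA11236959: cuggaaugaagCcugguccgg
*ATHB-15* site of SRNA24132551: uggaaugaagcCugguccgga
The trimmed miR173 is shown because its site in *TAS1C* had the most reads of all 106 sites, and because its sites lay in *TAS1* and *TAS2* transcripts, the source of trans-acting siRNAs. The *TAS1C* site was at chr2:16537890-16537909 on the minus strand, in a non-coding transcript of 1 exon.
miR173-5p: uucgcuugcagagagaaaucac
SRNA24126925: uucgcuugcagagagaaauc
*TAS1C* site: gauuuuucucUacaagcgaa
The *TAS3* siRNAs that cut auxin response factor mRNAs came as a nested set with starts 1 nt apart. The *ETT* site lay in exon 9 of 9, in the coding sequence, at chr2:14325942-14325962 on the minus strand.
SRNA24281186: uucuugaccuuguaagacccc
SRNA24281184: uucuugaccuuguaagaccc
SRNA25028402: uuucuugaccuuguaagaccc
SRNA25327079: uuuucuugaccuuguaagacc
*ETT* site of SRNA24281186: agggucuugcaAggucaagaa
Last come the siRNAs whose level rose at 12 h. SRNA14975183 matched the chloroplast *trnS* gene and SRNA21191644 matched U4 snRNA genes.
SRNA14975183: gagagauggcugaguggacu
SRNA21191644: ucgagaauuucuggaagggcu

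An exact match in the TAIR10.1 genome was found for 55 of the 91 siRNAs. The remaining 36 were all miRNA relatives, and 33 of them had a best match with 1 mismatch and 3 with 2 mismatches. The authors had mapped siRNAs with up to 2 mismatches. The levels of these 36 were low beside those of their miRNA: for 32 of them the median over the 15 libraries was under 1% of the summed deposited level of the miRNA rows with that mature sequence. Over the 36 the median was 0.0385% (range 0.0013 to 16%), and over the 16 miRNA relatives with an exact match it was 2.21% (0.0238 to 42.4%). By the study's methods the miRNA values are RPM (reads scaled to library size) on reads of 20–24 nt. The siRNA values gave whole reads when scaled by all mapped reads, so these percentages are approximate. They also depend on which miRNA the alignment chose. The 16% was that of SRNA11762369 beside miR156g (269 RPM), whose first base alone differs from the far more abundant miR156a-5p. SRNA20385303 and SRNA22208257, which are mature miRNAs themselves and among the 16, had medians of 7.13% (3.26 to 92.8%) and 39.2% (30.8 to 69.4%). Even an identical sequence was thus listed below its miRNA's level, so the percentages are rough and may be too low. SRNA22206987, for example, had a mean of 0.741 RPM (0.965 in replicates 1 and 2 and 0.292 in replicate 3), while the 6 rows with the miR156a-5p sequence summed to 160110 RPM. Whether the substitutions were made in the seedlings or in sequencing was not tested.

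A site's reads belong to the position and not to the query. Each record names 1 query, the queries of these files were all siRNAs of the level table, 2 of which had the sequence of a mature miRNA, and a miRNA that starts at the same base as its relative predicts the same cut. The reads below can therefore not be divided between an siRNA, its relatives and the miRNA. At *SPL10* position 2378, for instance, the dark record named SRNA22206987 and the light record SRNA11762369, and 5 sites in all had at least 2 of the siRNAs. The dark file also held 0 records of category 2 for any query, against 139 in the light file, so that whether a record is present cannot be compared between the libraries. CleaveLand's category 0 is a site with the single highest read count on its transcript, category 1 a tie for it, and category 2 a site above the transcript's average and below the highest. Of the 111 pairs, 74 had a category 0 record, 9 more a category 1 record, and 28 had a category 2 record in the light.

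The 58 pairs in genes that are known targets of miRNAs or trans-acting siRNAs had close pairing and many reads. Their median Allen score, a penalty that adds up mismatches and G:U pairs and is 0 for full pairing, was 2.0, and the median of the higher read count of the 2 libraries was 145.5. The 53 pairs in other genes had a median Allen score of 5.5 and a median of 14 reads. All 12 sites that held most of the reads of their transcript in either library were in known targets. The list of known targets held 144 genes and was written with earlier results of these data known, and a gene outside it is not thereby shown to be no miRNA target.

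Targets of the miR156 relatives were led by the *SPL* genes, which encode transcription factors of the juvenile-to-adult transition. At *SPL11* position 1263 (SRNA22209210, C20A) there were 1378 of 1605 reads in the dark, or 85.9% (95% Wilson interval 84.1 to 87.5%), and 3847 of 4212 in the light, or 91.3% (90.4 to 92.1%). At *SPL10* position 2378 the counts were 2253 of 3199 (70.4%) and 3433 of 4227 (81.2%), with intervals that did not overlap. At *SPL2* position 1159 (SRNA11762341) they were 2058 of 3686 (55.8%, 54.2 to 57.4%) and 1972 of 3526 (55.9%, 54.3 to 57.6%). Each of these positions thus held most of the reads of its transcript in both libraries. Such intervals cover counting error only, since reads from the same PCR product are not independent molecules.

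Further *SPL* sites had fewer reads. *SPL9* position 947 had 73 of 168 reads in the dark (43.5%, 36.2 to 51.0%) and 268 of 415 in the light (64.6%, 59.9 to 69.0%), with SRNA11762316 as the dark query and SRNA22209405 as the light one. *SPL3* position 797 in the 3′ UTR (SRNA22208579, G15A) had 1083 of 1406 reads (77.0%) and 877 of 1201 (73.0%). *SPL5* position 655, also in the 3′ UTR (SRNA22208379, U14C), had 163 of 219 (74.4%) and 66 of 92 (71.7%). For the last 2 the intervals of dark and light overlapped. *SPL13A* position 1112 had 1029 of 1575 reads (65.3%) and 525 of 761 (69.0%), with SRNA22208257, which pairs with it fully, and SRNA11762316. *AT1G69170* position 1307 (SRNA22211284) had 365 of 1137 reads in the light (32.1%, 29.5 to 34.9%), below the 472 reads at position 1, and was not listed in the dark. *SPL9* and *SPL13A* share the 21-nt window at this site and *SPL13A* and *SPL13B* the one 1 nt further, and reads from identical sequence cannot be told apart.

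The substituted miR156 relatives also had sites outside the *SPL* genes, mostly with weaker pairing. SRNA22208069 (G13A) was recorded at *RHD3*, which encodes a GTPase that shapes the endoplasmic reticulum, with 137 of 9576 reads in the dark and 95 of 7008 in the light at position 1478 and an Allen score of 5.0. SRNA22266841 (A5G) was recorded at *AT5G64640* position 1371, with 117 of 713 reads (16.4%, 13.9 to 19.3%) and 48 of 335 (14.3%, 10.98 to 18.5%), and an Allen score of 3.0. SRNA22338899 (C4G) was recorded at *AT2G04940* position 162, with 71 of 1014 and 53 of 827 reads. All 3 sites were category 0 in both libraries. Lower counts were seen for SRNA22218664 (A10U) at *AT1G13380* (24 and 16 reads), SRNA22459108 and SRNA22459139 (both C4U) at *AT3G13760* (13 and 7 reads), SRNA22223504 (A7G) at *AT3G03440* (14 reads, dark) and SRNA22216991 (G13U) at *AT1G64600* (6 reads, dark). Relatives of miR157 were recorded at *BPS2* (SRNA24345808, G14C), with 48 and 58 reads, and at *AT4G08850* (SRNA24579151, A4G), with 53 reads in the dark and an Allen score of 10.

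The trimmed miR173, SRNA24126925, had sites in 4 genes, as did SRNA20385303 alone among the others, and its *TAS1C* site had the highest read count of the 106. At *TAS1C* position 379 there were 7282 of 8280 reads in the dark (87.9%, 87.2 to 88.6%) and 5871 of 6694 in the light (87.7%, 86.9 to 88.5%). *TAS2* position 418 had 3427 of 4963 (69.1%) and 1436 of 2080 (69.0%), *TAS1A* position 379 had 1683 of 2475 (68.0%) and 1618 of 2243 (72.1%), and *TAS1B* position 374 had 802 of 999 (80.3%) and 570 of 785 (72.6%). These sites held most of the reads of each of the 4 transcripts, in the dark and in the light. The 20-nt windows of *TAS1A* and *TAS1C* are identical. The siRNA itself averaged 0.222 RPM in replicates 1 and 2 and 1.71 RPM in replicate 3. Its median level was 3.54% of that of miR173-5p, by the same rough percentage as above.

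The miR160 relative SRNA22669757 (A21U) was recorded at *ARF10*, *ARF16* and *ARF17*, auxin response factor genes. *ARF17* position 1420 had 2954 of 3663 reads in the dark (80.6%, 79.3 to 81.9%) and 1721 of 2098 in the light (82.0%, 80.3 to 83.6%). *ARF10* position 1340 had 2301 of 6771 (34.0%, 32.9 to 35.1%) and 1050 of 3984 (26.4%, 25.0 to 27.7%), and *ARF16* position 1519 had 874 of 2943 (29.7%) and 545 of 1829 (29.8%). The miR319 trim SRNA24540383 was recorded at 3 *TCP* genes, which encode transcription factors that limit cell proliferation in leaves. *TCP24* position 1142 had 279 of 1019 reads (27.4%) and 102 of 605 (16.9%), *TCP3* position 1195 had 242 of 1586 (15.3%, 13.6 to 17.1%) and 162 of 1461 (11.1%, 9.58 to 12.8%), and *TCP4* position 1487 had 145 of 1258 (11.5%) and 78 of 881 (8.85%). The dark share was the higher one at all 3 *TCP* genes, with intervals that overlapped at *TCP4* alone.

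Further relatives covered other transcription factor families. The miR169 trim SRNA9751058 was recorded in the 3′ UTRs of *NF-YA1* (23.9% of the reads in the dark and 18.8% in the light), *NF-YA9* (28.7% and 17.5%) and *NF-YA5* (30.4%, dark), which encode subunits of a CCAAT-binding factor. The miR167 relative SRNA22057182 (G5A) was recorded at *ARF6* (5.89% and 6.70% of the reads) and *ARF8* (8.96% and 8.49%). Its Allen scores of 11 and 10 were the 2 highest among the pairs in known targets. The miR159 trim SRNA25156325 was recorded at *MYB33* position 1172 (364 and 230 reads) and SRNA25156204 (U20A) at *MYB97* (30 reads, dark), genes of GAMYB-like transcription factors. SRNA11236891 (U1C), a relative of miR165a-3p, was recorded at the HD-ZIP III gene *REV* with 240 of 2809 reads in the dark (8.54%, 7.57 to 9.64%) and 199 of 1775 in the light (11.2%, 9.83 to 12.8%). SRNA19859050 (C2A) was recorded at *AGO1*, the target of miR168 and the main ARGONAUTE of miRNA action, with 19 of 9239 reads in the light, and at *AT2G28671* with 5.

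Several miRNA relatives had their sites in genes outside the list. SRNA23987825 (G21C), a relative of miR396a-5p, was recorded at *FLU*, which encodes a negative regulator of chlorophyll synthesis in the dark. Position 774 of *FLU* had 214 of 2001 reads in the dark (10.7%, 9.42 to 12.1%) and 247 of 2413 in the light (10.2%, 9.09 to 11.5%), the highest count of its transcript in both. The same siRNA was recorded at *AT2G38370* (26 and 28 reads), and the miR396 trim SRNA23987816 at *ACHT5*, which encodes an atypical thioredoxin of the chloroplast (67 reads, dark). The miR390 trim SRNA1842025 was recorded at *TAS3*, where miR390 is the known trigger, with 657 of 4770 and 749 of 4560 reads at position 472, and at *AT5G02480* (74 reads, dark). The miR158 relatives SRNA20821085 (A13C) and SRNA21253276 (C3G) were recorded at *AT2G01130* (47 and 70 reads) and *AT5G10540* (20 reads, light). The remaining relatives of miR158, miR403 and miR408 had from 5 to 19 reads at their sites.

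Genes of pentatricopeptide repeat (PPR) proteins, which bind and process organelle RNA, were recorded with miR161 relatives and *TAS2* siRNAs. SRNA25350469, a *TAS2* siRNA, was recorded at *RPF3* position 1469 (120 and 55 reads) and *AT1G63080* position 1512 (109 and 68). SRNA20385303, which is miR161.2 itself, was recorded in 4 PPR genes, at *AT1G62910* position 997 (31 and 14 reads), *RPF3* position 985 (27 and 20), *AT1G63330* (17, dark) and *AT1G62590* (12, dark). SRNA13414160, which starts 1 nt upstream of miR161.1, was recorded at *RPF2* position 980 (49 and 55 reads) and *AT5G16640* (31, dark). Other miR161 relatives were recorded at *AT1G63080* position 1020 (71 and 70), *AT5G41170* (19 and 16) and *AT1G64583* (13 and 9), and the *TAS2* siRNA SRNA23813697 at *AT1G12775* (27, dark). PPR genes are close paralogs, and of the 6 site windows found in more than 1 gene, 2 were in PPR genes.

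The *TAS* siRNAs fell into those that pair with another gene and those recorded at a *TAS* transcript. *ETT* and *ARF4*, auxin response factor genes that *TAS3* siRNAs are known to cut, had their sites at 3 positions set by the nested starts. At *ETT* position 1685 (SRNA24281186 in the dark, SRNA24281184 in the light) there were 182 of 1189 reads in the dark (15.3%, 13.4 to 17.5%) and 263 of 1534 in the light (17.1%, 15.3 to 19.1%). At *ETT* position 1686 (SRNA25028402) there were 81 (6.81%, 5.51 to 8.39%) and 108 (7.04%, 5.86 to 8.43%). *ARF4* position 1887 (SRNA25327079) had 14 and 5 reads, and the highest count of that transcript, 77 and 31 reads, was at position 1885. The *TAS1* siRNA SRNA24188506 was recorded at *AT5G18065* with 20 of 387 reads in the light.

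Few of the fully paired sites had the highest count of their transcript. Only records with a CleaveLand p of at most 0.05 were kept. Among the records of 4 or 5 reads, those of category 2 had Allen scores of 0 to 2.5 and a CleaveLand p of 0.0494. Those of category 0 or 1 had Allen scores of 5.5 to 13.5. The p limit can thus set which pairing goes with which category, so these counts do not relate pairing to site strength. Of the 111 pairs, 11 had an Allen score of 0, and 9 of these were light records of category 2 alone. They included siRNAs that match a *TAS* locus, recorded at that locus's transcript, at *TAS1A* 514 (SRNA3764569, 20 reads in the light), *TAS1C* 473 (SRNA20737337, 139 reads) and 579 (SRNA19382772, 54 reads), *TAS2* 563 (SRNA25264601, 20 reads) and *TAS3* 439 (SRNA22286734, 133 reads), which took 0.807 to 2.92% of the reads of the transcript. SRNA19382772 had 2 exact genome matches, 1 of them in *AT1G63630*, so *TAS1C* may not be its source. An 18S rRNA transcript (*AT2G01010*, SRNA15424431) had 144 of 173141 reads, or 0.0832%, at its fully paired position. The 2 fully paired sites that had the highest count of their transcript were *SPL13A* 1112 and *AT3G06435* 1493 (SRNA22831528), the latter with 64 of 878 reads in the dark (7.29%) and 27 of 398 in the light (6.78%).

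At the other end of the scale, 22 pairs had an Allen score over 7, and 20 of them were outside the known targets. The highest score, 24.0, was that of SRNA20978904 at *AT3G07350* position 829, where the alignment held 9 gaps and the light library 35 of 987 reads. Further siRNAs of structural RNA or of no class had from 5 to 63 reads. Among them SRNA4970854 was recorded at *GSTF8*, which encodes a glutathione S-transferase, with 25 of 5999 and 63 of 13026 reads, and the chloroplast siRNA SRNA14975183 at *AT4G38280* position 498 with 31 of 947 and 32 of 709. SRNA11262654, which matched chloroplast 23S rRNA, had 28 reads at *AT2G39210* in the dark, and SRNA7115903, which matched 18S rRNA, had 28 of 44591 reads at *BGAL1*, a beta-galactosidase gene, in the light. SRNA19950377, with 258 exact matches in the genome, had 30 of 11059 at the pseudogene *AT4G06477*, and SRNA16903585 had 21 of 1252 at *ATCG00090*, both fully paired and in the light. The siRNAs not named here had from 5 to 19 reads at their sites, and SRNA11040075 at *AT4G14165*, had 6 of 13 reads in the light, or 46.2% (23.2 to 70.9%), the highest share outside the known targets.

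The read minimum of 5 left out 36 of 181 records of this length. Just inside it, 7 records had 5 reads, among them *TAR1* position 369 in the dark (SRNA21261407, 5 of 23 reads), *OBP2* (SRNA5813552, 5 of 353) and *ARF4* (SRNA25327079, 5 of 531). Just outside it, 8 records had 4 reads, among them *TAR1* position 369 in the light, with 4 of 18 reads, and *LCR* (SRNA25165781, 4 of 2495).

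Where siRNAs started 1 nt upstream of a miRNA, the reads at both predicted positions could be read side by side. There were 10 such pairs, and in 5 the shifted position had fewer reads than the miRNA's own in every library listed. Pairs entered only through a record at the shifted position. A category 0 or 1 record there leaves no room for a higher count at the miRNA's position in that library. The split of the pairs thus follows in part from how they were chosen. *ATHB-15* had 15 reads in the dark and 10 in the light at position 1280, that of SRNA24132551, against 493 and 261 at position 1279, that of miR166a-3p and SRNA11236959. *ARF17* had 26 and 14 reads at position 1421 (SRNA8018375) against 2954 and 1721 at 1420. *SPL13B* had 17 and 11 at position 1113 (SRNA7862325) against 1104 and 511 at 1112, *SPL13A* had 6 and 7 (SRNA18410763) against 1029 and 525, and *VHA-C3*, a vacuolar proton pump subunit gene, had 7 (SRNA24461846) against 15 in the light. *SPL13A* and *SPL13B* share the window at position 1113, so their pairs are not separate cases. The other 5 pairs went the opposite way. *AT1G63080* had 71 and 70 reads at position 1020 (SRNA24307275) against 4 and 0 at 1019, the position of miR161.1, and *RPF2* had 49 and 55 at 980 (SRNA13414160) against 33 and 14 at 979. *AT5G41170*, *AT5G16640* and *TK1b* likewise had more reads at the shifted position. Whether the siRNA level goes with the reads was not tested over the 10 pairs. As examples, SRNA24132551 averaged 6323 RPM in replicates 1 and 2 and 301 RPM in replicate 3, and SRNA24307275 averaged 0.183 and 0.775 RPM. In *HAM3*, a GRAS transcription factor gene, SRNA24389187 predicted position 864, which had 156 and 107 reads, while the highest count, 1186 and 514, lay at position 867.

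A total of 60 of the distinct sites were on transcripts listed for both libraries. The 95% intervals of the site's share in the dark and in the light did not overlap at 11 of the 60 (18.3%), and over all 169 such sites of the files, whatever the query, they did not overlap at 20.1%, so the share was close to the background. The light share was the higher one at 6 of the 11, *SPL9*, *SPL10*, *SPL11*, *TAS1A*, *REV* and *TAS3* position 472, and the dark share at 5, *TCP24*, *TCP3*, *TAS1B*, *ARF10* and *NF-YA9*. Scaled to the mapped reads of each library, the site reads were lower in the light than in the dark at 38 of the 60 sites, with a median light-to-dark ratio of 0.763, and over the 169 sites the median ratio was 0.855. Over the 60 sites the ratio ran from 0.377 at *ARF4*, with 14 and 5 reads, and 0.386 at *TCP24* to 3.88 at *SPL9*, where the site had 1.497 RPM in the dark and 5.80 RPM in the light. Each condition had 1 library, so the difference has no replicate check and no test was made.

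Of the 105 distinct sites that could be placed on an annotated transcript, 75 were in coding sequence, 10 in a 3′ UTR, 4 in a 5′ UTR and 16 in transcripts without a coding sequence. The siRNAs started with U in 59 of 91 cases (64.8%) and with A in 14 (15.4%). The 52 siRNAs of 22–23 nt and the 71 of 24 nt with records of the same kind are given for comparison, without a test, since the siRNAs of a set share targets and are not replicates. U was first in 55.8% of the 22–23-nt set and 15.5% of the 24-nt set. Relatives of a miRNA by the 16-nt rule made up 46.2% of the 20–21-nt set, 21.2% of the 22–23-nt set and 2.82% of the 24-nt set. The shares of distinct sites in known targets were 50.9%, 19.6% and 2.50%, and the median Allen scores were 3.0, 5.25 and 7.0. The median read count at a site was 30.5, 28.0 and 22.0, and the median siRNA level 3.08, 0.952 and 0.737 RPM.

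Before changes in level are given, replicate 3 has to be set apart. It was made with another kit (Small RNA v1.5) than replicates 1 and 2 (TruSeq), and kit and replicate cannot be told apart. The mean level in replicate 3 was under 0.5 times that in replicates 1 and 2 for 40 of the 91 siRNAs and over 2 times it for 35, with ratios from 0.0018 to 149. Over all siRNAs of the table the corresponding counts were 1686 and 1121 of 4248. At W0 h, SRNA22209405 had 98.9, 102 and 2598 RPM in replicates 1, 2 and 3, and SRNA11236959 had 2939, 3132 and 5.84 RPM. Means and medians over the 15 libraries, here and above, pool both kits. Levels behind a change are given by replicate, and changes were fitted within replicates.

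The siRNA levels covered a wide range. The 3 highest means over the 15 libraries were those of SRNA24132551 (4316 RPM), SRNA11236959 (1562 RPM) and SRNA22209405 (934 RPM), all miRNA relatives, and the 3 lowest those of SRNA21423958 (0.0554 RPM), SRNA6486298 (0.123 RPM) and SRNA24059876 (0.235 RPM). The order of the highest depended on the replicate: SRNA24132551 averaged 6323 RPM in replicates 1 and 2 and 301 RPM in replicate 3, SRNA11236959 averaged 2339 and 7.52 RPM, and SRNA22209405 averaged 79.2 and 2643 RPM and was the highest in replicate 3. The median was 3.08 RPM, against 0.758 RPM over all 4255 siRNAs. Of the 91 siRNAs, 10 were listed at 0 at 1 or more time points, and always in all 3 replicates. SRNA10450109, which matched rRNA genes, was one of them, with 9.81, 8.09 and 0.0567 RPM at W0 h, 0 in the 3 replicates of W3 h, and 20.3, 23.8 and 0.228 RPM at W12 h. These 10 did not enter the fit, which needed a value above 0 in all 15 libraries, and 81 did.

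In the limma fit on log2(RPM + 0.1), with p-values adjusted by the Benjamini-Hochberg method over the 2855 siRNAs tested, 2 of the 81 rose and 6 fell at W12 h relative to W0 h. These are 2.47% and 7.41% of the 81, and over all siRNAs tested 1.44% rose and 3.92% fell. At W6 h no siRNA of the 81 passed, against 0.175% higher and 0.035% lower over all tested, and at W1 h and W3 h none passed of the 81 or of the 2855. At an unadjusted p under 0.05 there were 1, 0, 6 and 34 of the 81 at W1, W3, W6 and W12 h. The share of all 2855 at this limit was not computed, so these counts say nothing particular about the set. With edgeR on recovered reads, none of the 81 was called at W1, W3 and W6 h either. The median log2 change at W12 h was -0.49 for the 81 and -0.45 for all 2855. This shift was that of replicates 1 and 2: from W0 h to W12 h the median log2 level of all siRNAs tested went from 0.27 to -0.40 in replicate 1 and from 0.31 to -0.34 in replicate 2, and it was -0.26 and -0.25 in replicate 3. With each library rescaled to the same median, 4 of the 81 were higher and 0 lower at W12 h.

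The siRNAs that rose matched structural RNA genes. SRNA14975183, from the chloroplast serine tRNA gene *trnS*, had 1.82, 0.598 and 0.397 RPM in replicates 1, 2 and 3 at W0 h and 15.4, 14.7 and 1.19 RPM at W12 h. All 3 replicates at W12 h were above their own W0 h value, and replicate 3 at W12 h lay between replicates 1 and 2 at W0 h. The log2 change was 2.93 ± 0.42 (SE, n = 3, adjusted p = 0.00148), and without replicate 1 or 2 the adjusted p was 0.0626 and 0.242. SRNA21191644, from U4 snRNA genes of the spliceosome, had 1.98, 2.17 and 0.113 RPM at W0 h and 6.32, 6.96 and 0.398 RPM at W12 h. Its log2 change was 1.49 ± 0.29 (SE, n = 3, adjusted p = 0.0116), and without replicate 1 or 2 the adjusted p was 0.259 and 0.376. Both also passed after rescaling and with edgeR. For another siRNA of the set that matched *trnS*, SRNA16903585, a change was not tested. It had 0.441, 0.217 and 0.170 RPM at W0 h and 0.559, 0.268 and 0.257 RPM at W6 h. At W12 h it was listed at 0 in the 3 replicates, so it did not enter the fit. Such zeros fill whole time points and are not read here as a fall.

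The siRNAs that fell were 5 miRNA relatives and a *TAS2* siRNA. SRNA7188632, from *TAS2*, had 11.9, 7.33 and 18.9 RPM at W0 h and 4.56, 2.18 and 11.4 RPM at W12 h, lower in each replicate, with a log2 change of -1.27 ± 0.31 (SE, n = 3, adjusted p = 0.0346). The miR158 relative SRNA20821085 had a log2 change of -1.14 ± 0.32 (adjusted p = 0.0456). The miR156 relatives were SRNA22209210 (-0.91 ± 0.25, adjusted p = 0.0461), SRNA22628530 (-0.77 ± 0.21, adjusted p = 0.0461) and SRNA22209405 (-0.72 ± 0.19, adjusted p = 0.0439). For SRNA22209405 the values at W12 h were 43.9, 54.1 and 2470 RPM. The miR166 relative SRNA24132551 had 7395, 6605 and 297 RPM at W0 h and 4438, 4786 and 259 RPM at W12 h, a log2 change of -0.47 ± 0.13 (adjusted p = 0.0442). None of these 6 passed after rescaling to the same median or with edgeR, where the adjusted p ranged from 0.178 to 0.947 and from 0.17 to 0.995. Without replicate 3, 4 of the 81 siRNAs were higher and 34 lower at W12 h. Over all 2855 siRNAs tested, 65 were higher and 872 lower in that fit.

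The miR159 trim SRNA25156325 did not pass, with 145, 86.6 and 0.680 RPM at W0 h and 387, 418 and 1.65 RPM at W12 h and a log2 change of 1.62 ± 0.49 (SE, n = 3, adjusted p = 0.0612). The *TAS3* siRNA SRNA24281186 had 13.4, 14.99 and 144 RPM at W0 h and 9.89, 7.92 and 112 RPM at W12 h (log2 change -0.57 ± 0.21, adjusted p = 0.0957), and the trimmed miR173 had 0.220, 0.326 and 2.89 RPM and 0.330, 0.266 and 0.967 RPM (log2 change -0.43 ± 0.39, adjusted p = 0.46). By class, the median log2 change at W12 h was -0.49 for the 41 relatives of a miRNA by the 16-nt rule and -0.73 for the 10 with a substitution inside. It was -0.57 for 13 *TAS* siRNAs and -0.02 for 7 siRNAs of genes annotated as structural RNA, each beside the -0.45 of all siRNAs tested.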

How the data were processed

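The authors mapped trimmed small RNA reads to TAIR10 with Bowtie 1.0.0 and deposited levels as RPM, which the file header calls TPM. The sources used here do not state the denominator for siRNAs. With all mapped reads as the denominator, 100% of the siRNA values above 0 came out as whole reads (within 0.02). The degradome files, whose unit falls under other, are CleaveLand text records of the authors (p at most 0.05, category at most 2) with raw reads at each transcript position. The file header and the study's methods name different CleaveLand versions. The 3 W24 h libraries were not analysed here, a choice taken over from earlier work on these data whose ground was not tested here.

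Sequences were read from the records and compared with the miRNA and phasiRNA sequences of the supplement. Site windows were matched to RefSeq transcripts of TAIR10.1, in which all 58 phasiRNAs lay at their TAIR10 positions. siRNAs were matched to the genome with bwa 0.7.19-r1273 (up to 2 mismatches). Shares have 95% Wilson intervals. Levels were fitted with limma 3.58.1 in R 4.3.3 on log2(RPM + 0.1), 15 libraries together, with time point and replicate as terms, on siRNAs above 0 in all 15 (threshold 0.05, edgeR 4.0.16 as an alternative). Deviations from time-point means correlated within replicate numbers at 0.823 to 0.956, which the kit difference of replicate 3 alone would also give.

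The siRNAs and the list of known targets were chosen with earlier results of these data known. Named were, for each known target or gene of a miRNA or phasiRNA relative, the siRNA with most reads at its site. Of the others the 15 with most reads were named, as were those past the threshold, those with at least 2 target genes, the 3 highest and 3 lowest levels, and sites at the edge of the read minimum. Alternatives were other pseudocounts, filters, scalings, tests and read, p and category limits, and each replicate left out.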

Additional observations from a re-analysis of the deposited data

How the results depend on the processing

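At W12 h the 2 higher siRNAs of the set became 7 with no filter on low values and 4 after rescaling to the same median or with edgeR, and the 6 lower ones became 23 with no filter, 12 with a mean of at least 1 RPM, 1 with a pseudocount of 0.01 RPM and 0 without a variance trend, after rescaling or with edgeR. Over all siRNAs tested, the 41 higher at W12 h became 274 with no filter, 27 without a trend, 87 after rescaling and 92 with edgeR. The 112 lower became 1060, 44, 5 and 10 in the same order. They became 50 with the pseudocount of 0.01 RPM and 160 with a mean of at least 1 RPM. At W6 h the 5 higher became 313 with no filter, 3 with either other pseudocount, 2 without a trend, 14 after rescaling and 18 with edgeR, and the 1 lower became 327 with no filter and 5 with edgeR. The filter on the mean leaves fewer siRNAs to test than the main fit, so its counts have another base. With no filter, siRNAs listed at 0 in whole time points enter the fit, and more are tested. Then 260 were higher and 281 lower at W1 h (1 and 0 of the set) and 310 and 209 at W3 h (2 and 2 of the set), and at W6 h 3 of the set were higher and 1 lower.

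Leaving out a replicate gave 0 to 4 higher and 0 to 34 lower siRNAs of the set at W12 h, 1 to 65 and 0 to 872 over all siRNAs, and at W6 h 0 to 1 and 0 to 2 of the set and 1 to 19 and 0 to 99 over all. The highest counts were those without replicate 3, and no siRNA of the set passed without replicate 1 or 2. At W1 h and W3 h the counts were 0 throughout.

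The fit used the replicate block. With no replicate block, 0 siRNAs passed at any time point, in the set or over all, and the adjusted p was 0.997 for all 8 siRNAs called at W12 h.

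A limit of p at most 0.01 left 41 of the 91 siRNAs and 48 of the 106 sites, category 0 alone left 57 and 69, and sites recorded in both libraries left 33 and 39. Depth limits the sites near the minimum of 5 reads, and each degradome condition had 1 library.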
